A study of Drosophila melanogaster with 3 samples.

Results

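The genes described here encode the vacuolar proton pump of Drosophila melanogaster, the V-ATPase. They were chosen as the protein-coding genes whose symbol in the Ensembl annotation starts with Vha, and 33 of 13945 protein-coding genes on the 6 main chromosome arms met that rule. By the known subunit of each symbol, 13 of the 33 genes encode parts of V1, 18 encode parts of Vo and 2 encode accessory proteins. A gene was called bound at its promoter where a peak summit lay within 500 bp of one of its annotated transcript starts. A gene was called bound in its span where a peak shared at least 1 bp with the stretch from its first to its last annotated base.

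The V-ATPase is a rotary pump that spends ATP to move protons across membranes. Its V1 part sits in the cytosol and hydrolyses ATP, and its Vo part lies in the membrane and carries the protons. The pump acidifies endosomes, lysosomes and secretory vesicles, and in insects it energises epithelia such as the Malpighian tubules. Many of its subunits are encoded by several genes in flies, some of them used mainly in particular tissues.

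Binding of Aef1 (adult enhancer factor 1), a C2H2 zinc finger protein known for binding repeats of CAACAA, was mapped by chromatin immunoprecipitation and sequencing. All samples were whole embryos from 0 to 24 h of development, and all carried an Aef1-eGFP fusion, a copy of Aef1 tagged with enhanced green fluorescent protein. Per the labels, the sample description names an antibody against GFP while the antibody field reads Aef1, the 3 samples are biological replicates of 1 group, and neither the promoter of the transgene nor the tissues that express it are given. Whole embryos mix all cell types, so a peak cannot be placed in any one of them, and neither untagged embryos nor an input library were analysed here. The authors' peak lists, thresholded on the irreproducible discovery rate (IDR, low where the order of peaks repeats between a pair of peak calls), held 3495, 3126 and 2942 peaks in replicates 1, 2 and 3.

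The reference sequence at the summits of 4 genes is shown so that the bound DNA can be read beside its values. Coordinates are dm6, each sequence is written 5′ to 3′ on the strand of its V-ATPase gene, and bases annotated as an untranslated region of a neighbour were left out except for 1 stretch of 30 bases. Capitals mark the searched words (CAACAA with its variant GCAACA, and the TATA word TATAAA) or their reverse complements. Vha100-1 and Vha68-1 are shown because they were the genes among those bound in 3 replicates whose summit had CAACAA within 50 bp. Vha16-5 and Vha13 are examples of those that had none. Vha100-2, Vha16-1 and Vha36-1 also had none and are not shown. The Vha68-1 window, chr2L:13004226-13004326 on the minus strand, had TTTATA near its upstream end and CAACAA as its last bases.
Vha68-1: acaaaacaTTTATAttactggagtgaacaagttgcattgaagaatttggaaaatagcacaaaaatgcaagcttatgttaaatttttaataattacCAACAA
At Vha100-1 the stretch chr3R:29130935-29130964 on the plus strand lay in the 5′ untranslated region of the neighbouring gene dgt6. Its TTGTTGC is the reverse complement of the overlapping words GCAACA (the first) and CAACAA (the second).
Vha100-1 stretch: agttctttgtttTTGTTGCtgcccagtgtt
The rest of the window toward Vha100-1, chr3R:29130973-29131029 on the plus strand, held TTTATA.
Vha100-1: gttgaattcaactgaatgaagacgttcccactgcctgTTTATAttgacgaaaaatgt
The windows of Vha16-5, chr2L:10737269-10737344 on the minus strand, and of Vha13, chr3R:19644436-19644536 on the minus strand, held none of the searched words.
Vha16-5: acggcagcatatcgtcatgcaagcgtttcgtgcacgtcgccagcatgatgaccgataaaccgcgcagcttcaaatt
Vha13: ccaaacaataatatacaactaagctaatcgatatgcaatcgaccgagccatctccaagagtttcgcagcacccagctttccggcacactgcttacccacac

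Aef1-eGFP was bound at the promoters of a minority of the V-ATPase genes, and the same 7 genes were bound in every replicate. The promoter was bound at 9, 8 and 7 of the 33 genes in replicates 1, 2 and 3, against 16.6%, 15.0% and 14.6% of all protein-coding genes. In all 3 replicates 7 genes were bound, which is 21.2% of the 33, against 11.3% of all protein-coding genes. In at least 1 replicate 10 genes were bound, against 19.8% of all genes. No gene was bound in exactly 2 replicates, 3 were bound in exactly 1 and 23 in none. The shares of V-ATPase genes were above the shares of all genes, and with 33 genes and 1 group of samples no test of that difference was run. The gap was smaller in the 4 thresholded lists deposited for the whole series, each read on its own. They had 8, 8, 8 and 7 of the 33 genes bound (24.2% for 8 and 21.2% for 7). The shares of all genes there were 20.2%, 18.8%, 18.3% and 19.3%.

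The bound genes were spread over both parts of the pump. In all 3 replicates 3 of 13 V1 genes (23.1%), 4 of 18 Vo genes (22.2%) and 0 of 2 accessory genes were bound. Among all protein-coding genes the share was 11.3%. Counted by subunit, 5 of the 13 V1 and Vo subunits had a gene bound in 3 replicates, 2 had genes bound in 1 replicate only, and 6 had no bound gene. The 5 were the catalytic subunit A, the rotor shaft subunit D, the stalk subunit G, and the membrane subunits a and c. A subunit was counted where any of its genes was bound, so subunits with more genes had more chances. Subunits a and c have 5 genes each, and the counts by subunit have no background. Of the 5 subunits with a single gene, 1 was bound in 3 replicates, which was subunit G, encoded by Vha13.

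**Figure D1:**
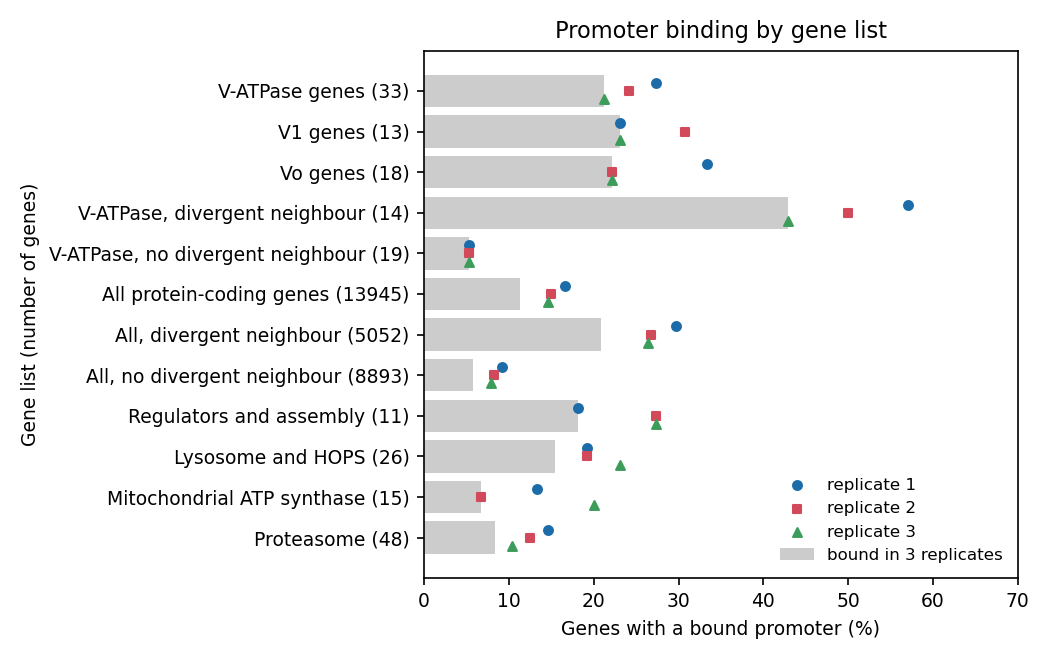
Share of genes with a bound promoter (%), for V-ATPase genes, their subsets, all protein-coding genes and other gene lists, with the number of genes in brackets. Bars give genes bound in all 3 replicates and symbols give each replicate; V-ATPase genes with a divergent neighbour stand highest at 42.9%, and those without stand at 5.26%.

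Each peak's place in its own list was counted from the peak with the highest signal, so that a low percentage is a strong peak. The signal is the authors' value and its scale is unstated, so it orders peaks within 1 list only. Over all peaks at promoters the median place was 45.9%, 46.4% and 45.6% in replicates 1, 2 and 3. The median place of the strongest promoter peak of each bound V-ATPase gene was 53.8% (9 genes), 40.3% (8 genes) and 39.8% (7 genes). The V-ATPase peaks thus spanned the lists from the strong end to the weak end. Within the strongest 20% of each list lay 3, 2 and 3 of these genes, against 23.2%, 23.5% and 23.6% of all promoter peaks.

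Among the genes of V1, Vha68-1 had the strongest peak. Vha68-1 is 1 of 3 genes for subunit A, which hydrolyses ATP. Its peak stood at 30.8%, 23.5% and 39.8% of the lists in replicates 1, 2 and 3, a mean of 31.4% ± 8.16 (SD, n = 3), with signals of 100, 105 and 75.7. The summit lay 172, 169 and 149 bp upstream of its start. On the other side stood the start of mTor, the kinase TOR of nutrient signalling, at 201, 204 and 224 bp, so Vha68-1 was the nearer gene in every replicate. The other genes for subunit A, Vha68-2 and Vha68-3, lie 178 bp apart on the same arm and were not bound, and Vha68-3 ends 19476 bp from Vha68-1.

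Vha13 encodes subunit G of the peripheral stalk that holds V1 to Vo. Its peak stood at 53.8%, 64.6% and 48.7%, a mean of 55.7% ± 8.12 (SD, n = 3), with signals of 69.1, 54.5 and 66.9. The summit lay 91, 114 and 100 bp upstream of its only annotated start. The 3 places lay in the middle of each list. The IDR was 0.000763 and 0.000224 in replicates 1 and 2 and 0.00829 in replicate 3, near the threshold. The nearest divergent start, that of the nucleoporin gene Nup58, was 640 bp from the start of Vha13, and no other start lay within 500 bp of a summit.

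Vha36-1, for subunit D of the central shaft, had the weakest of the peaks found in 3 replicates. It stood at 79.4%, 71.1% and 74.6%, a mean of 75.0% ± 4.17 (SD, n = 3), with signals of 50.3, 50.3 and 49.0. The summit moved more between replicates here than at any of the other 6 genes bound in 3, over 103 bp. It lay 92 and 17 bp upstream of the start in replicates 1 and 2 and 11 bp downstream in replicate 3. The start of CG8187, which runs the other way, was nearer to the summit in replicate 1 only, at 20 bp. Vha36-2 and Vha36-3, the other genes for subunit D, were not bound.

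Vha44 encodes subunit C, a regulatory subunit at the joint of V1 and Vo, and was bound in replicate 2 only. The peak stood at 94.9% of the list with a signal of 36.9 and an IDR of 0.00943. Its summit lay 101 bp upstream of Vha44 and 22 bp from a start of Hmgs, which encodes the enzyme HMG-CoA synthase. In the authors' ranked lists, which keep peaks that miss the threshold, the IDR of the peak at this promoter was 0.0205 in replicate 1 and 0.881 in replicate 3. Over the 3 replicates the call thus rested on 1 peak close to the threshold, and of the 4 whole-series lists the one of 4566 peaks also had a peak at this promoter.

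Among the genes of Vo, the strongest peaks were at the a and c subunits. Subunit a forms the paths by which protons enter and leave the membrane, and c subunits form the rotating ring. Vha100-2, for subunit a, stood at 7.81%, 12.2% and 10.6%, a mean of 10.2% ± 2.22 (SD, n = 3), with signals of 216, 152 and 161. Its summit lay 306, 287 and 306 bp upstream of a Vha100-2 start. That site is inside an intron of the longer Vha100-2 transcript and in the 5′ untranslated region of Vti1b, the gene of a SNARE protein, whose start was nearer, at 239, 220 and 239 bp. A second, weak peak lay upstream of the other Vha100-2 start, 136 bp away at 94.1% in replicate 1 and 130 bp away at 96.7% in replicate 2. In replicate 3 the peak there had an IDR of 0.128 and missed the threshold. Vha100-4, a second gene for subunit a that is 517 bp from Vha100-2, was not bound.

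Vha100-1, the a subunit known from neurons, stood at 18.5%, 30.3% and 10.7%, a mean of 19.8% ± 9.87 (SD, n = 3). Its signals were 136, 90.7 and 160, and this was the largest spread of place among the 7 genes. The summit lay 214, 238 and 209 bp upstream of Vha100-1 but within 17 bp of the start of dgt6, a subunit of the augmin complex of the mitotic spindle, in every replicate. The 2 sequences shown for Vha100-1 lie on either side of the dgt6 start. Vha100-3 and Vha100-5, the remaining genes for subunit a, were not bound.

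Vha16-5, for subunit c, stood at 10.3%, 13.5% and 11.8%, a mean of 11.9% ± 1.60 (SD, n = 3), with signals of 187, 145 and 152. Its place varied least among the 7 genes. The summit lay 288, 276 and 258 bp upstream of Vha16-5 and 14, 26 and 44 bp from the start of CG12299 on the other strand, so the neighbour was nearer in every replicate. Vha16-1, also for subunit c, stood at 56.5%, 50.3% and 63.1%, a mean of 56.6% ± 6.40 (SD, n = 3), with signals of 66.7, 65.0 and 56.4. Its summit lay 124, 150 and 112 bp upstream of a start, and no start of another gene lay within 500 bp of it. Vha16-1 was the only one of the 7 genes bound in 3 replicates without a divergent neighbour within 1000 bp. The remaining genes for subunit c, Vha16-2, Vha16-3 and Vha16-4, were not bound.

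VhaM9.7-a and VhaM9.7-b, for the small membrane subunit e, were bound in replicate 1 only. The peak of VhaM9.7-b stood at 74.6% with a signal of 52.9 and an IDR of 0.00147, 359 bp upstream of its start and 56 bp from the start of COX8, a subunit of cytochrome c oxidase. The peak of VhaM9.7-a stood at 91.9% with a signal of 42.7 and an IDR of 0.00579, 162 bp upstream and 73 bp from the start of CG11586. At neither gene did the ranked lists of replicates 2 and 3 hold a summit within 500 bp.

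**Figure D2:**
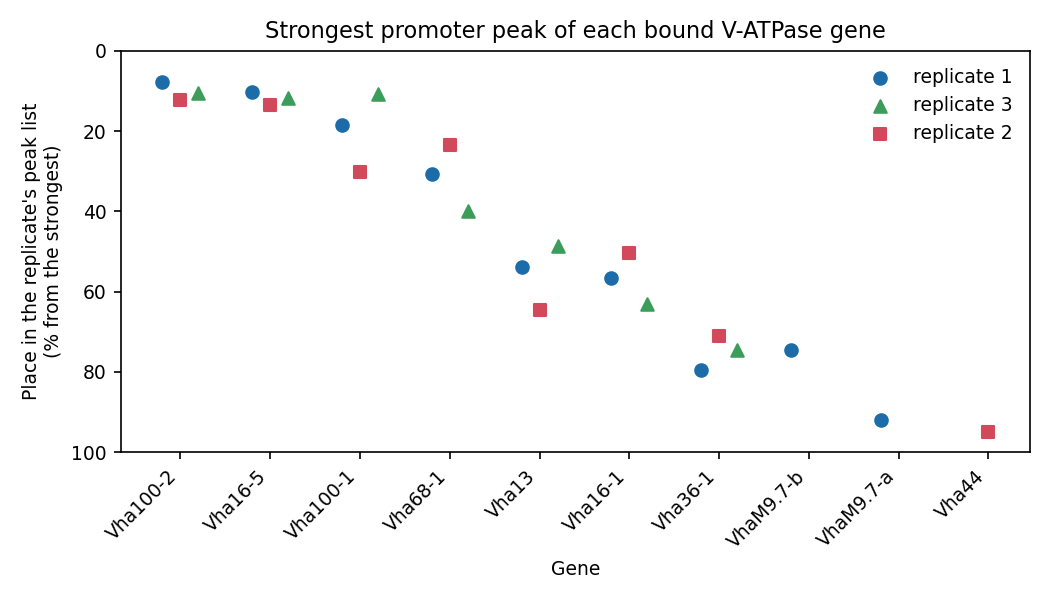
Place of the strongest promoter peak in its replicate's list (% from the strongest, axis inverted so that strong peaks are at the top) for the 10 V-ATPase genes bound in at least 1 replicate. Vha100-2 and Vha16-5 stay between 7.81% and 13.5%, Vha100-1 is the most spread, and the 3 genes on the right have 1 symbol each.

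The order of the 7 genes by mean place was Vha100-2, Vha16-5, Vha100-1, Vha68-1, Vha13, Vha16-1 and Vha36-1. The ranges of Vha100-2 and Vha16-5 over replicates overlapped, as did those of Vha16-5 and Vha100-1, of Vha100-1 and Vha68-1, and of Vha13 and Vha16-1. Those of Vha68-1 and Vha13 did not, at 23.5% to 39.8% and 48.7% to 64.6%, and those of Vha16-1 and Vha36-1 did not, at 50.3% to 63.1% and 71.1% to 79.4%. Where ranges next to each other in the order are joined, it falls into a strong group of 4 genes, a middle pair and 1 weak gene. Within the first group neither Vha100-2 nor Vha16-5, the latter at 10.3% to 13.5%, overlapped Vha68-1. The grouping describes 3 replicates and was not tested.

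Most of the bound V-ATPase promoters were shared with another gene. Of the 10 genes bound in at least 1 replicate, 8 had the start of another gene within 500 bp of the summit, and at 6 of these the other start was the nearer one in every bound replicate. Among the 7 genes bound in 3 replicates, 5 had such a start, and at 3 (Vha100-2, Vha16-5 and Vha100-1, the strongest) it was the nearer one throughout. The share of all bound genes with another start this close to the summit was not counted, so these counts have no background. Which of a pair of genes a peak concerns cannot be told from these lists.

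A divergent neighbour is a start of another protein-coding gene on the opposite strand within 1000 bp upstream. Of the 33 V-ATPase genes, 14 had one, and 6 of these 14 (42.9%) were bound in all 3 replicates, against 20.8% of the 5052 protein-coding genes with a divergent neighbour. Of the 19 V-ATPase genes without one, 1 (5.26%) was bound, against 5.81% of 8893 such genes. The bound V-ATPase genes thus lay almost wholly on the side with a divergent neighbour, which is also where binding was more frequent among all genes. Of the 1570 protein-coding genes bound in all 3 replicates, 1053 had a divergent neighbour, so having one was common among bound genes in general. These strata were described and not tested.

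**Figure D3:**
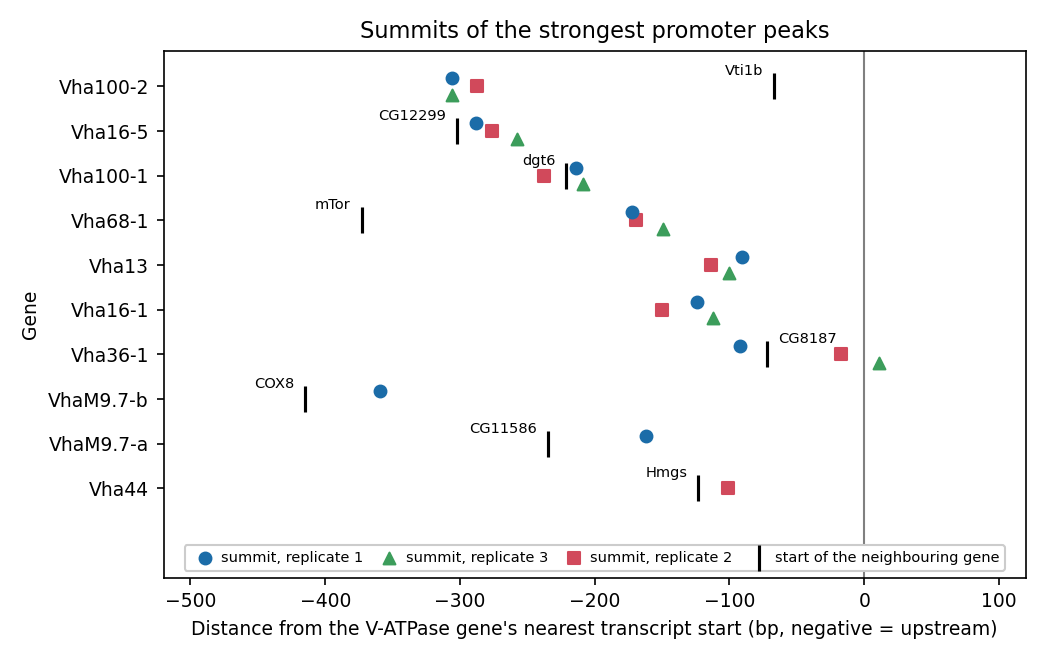
Position of the summit of the strongest promoter peak in each replicate relative to the nearest transcript start of the V-ATPase gene (bp, upstream negative), with a bar at the start of the neighbouring gene where one lay within 500 bp. Summits sit beside the bar rather than beside 0 at Vha16-5 and Vha100-1, while Vha13 and Vha16-1 have no bar.

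Peaks that touched the gene span were fewer than bound promoters, and their share was close to the background. A peak touched the span of 4, 5 and 5 of the 33 genes in replicates 1, 2 and 3, against 15.7%, 14.2% and 13.7% of all protein-coding genes. In all 3 replicates 4 genes (12.1%) had such a peak, against 9.65% of all genes, and 6 did in at least 1 replicate, against 19.8%. The 4 were Vha13, Vha36-1, Vha100-2 and Vha16-1. Vha44 was added in replicate 2 and Vha68-1 in replicate 3, in each case by the edge of the promoter peak already described. All the span peaks were thus also promoter peaks. At Vha100-2 the stronger peak lay wholly inside the span, near the inner of its starts, while the other span peaks crossed the edge of the gene. Only 1 gene of the 33, Vha100-2, held the summit itself in every replicate, against 6.83% of all genes. The median span of the 33 genes was 1732 bp, from 494 to 11825 bp, against 2166 bp for all genes.

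The 23 genes without a bound promoter were mostly far from any thresholded peak. The distance from their nearest start to the nearest summit of any replicate had a median of 16220 bp and ran from 886 to 76009 bp, and 14 of them had no summit within 10000 bp. Vha14-1, for subunit F of the central shaft, was the 1 unbound gene with a summit within 1000 bp, at 890, 891 and 886 bp. Subunits B, E, F, H, c″ and d and both accessory genes, VhaAC45 and VhaAC45RP, had no promoter peak in the thresholded list of any replicate. In the 4 thresholded lists deposited for the whole series, Vha26 was bound at its promoter in 2, those of 4971 and 4375 peaks. These subunits include Vha26 for the stalk subunit E, VhaSFD for the regulatory subunit H, VhaAC39-1 and VhaAC39-2 for subunit d, and VhaPPA1-1 and VhaPPA1-2 for the proteolipid c″.

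In the authors' ranked lists, weaker summits lay at more of the promoters, of the V-ATPase genes and of all genes alike. A ranked peak of any IDR had its summit within 500 bp of a start at 20, 17 and 17 of the 33 genes, against 45.6%, 48.7% and 52.0% of all genes. In all 3 replicates this was so for 13 genes, against 30.4%, and in at least 1 replicate for 24, against 68.9%. Most of these additional peaks were far from the threshold. Vha26 had IDRs of 0.497, 0.119 and 0.0622, and Vha68-2 had 0.619, 0.663 and 0.113. No ranked summit lay at the promoters of Vha14-1, Vha14-2, Vha36-2, Vha36-3, Vha100-3, VhaAC39-1, VhaAC45, VhaM9.7-d and VhaPPA1-2 in any replicate.

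Vha55, the only gene for subunit B, the partner of subunit A in the ATP-binding head, stood apart from the other unbound genes. Its promoter had no peak in the thresholded lists, yet the ranked lists held a peak there with an IDR of 0.000857, 0.00199 and 0.000363 in replicates 1, 2 and 3. All 3 values pass the IDR of 0.01 that the thresholded lists reach. The signals were 59.2, 62.2 and 56.5, which would place the peak at 66.0%, 53.3% and 62.9% of the thresholded lists, near the places of Vha13 and Vha16-1. The summit lay 31, 25 and 79 bp upstream of a Vha55 start. Of the ranked peaks past the threshold on the main arms, 99, 111 and 110 were missing in this way from the thresholded list, or 2.76%, 3.45% and 3.63%. Of these, 64, 62 and 60 lay on 3R, the arm of Vha55. The reason was not tested. With the ranked lists read at an IDR of 0.01, 8 V-ATPase genes were bound in all 3 replicates, against 11.5% of all genes.

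The Vha55 sequence is shown because this peak is in no thresholded list of a replicate. It is chr3R:12627830-12627910 on the minus strand, dm6, with 20 bases of annotated untranslated region left out, and capitals mark GCAACA.
Vha55: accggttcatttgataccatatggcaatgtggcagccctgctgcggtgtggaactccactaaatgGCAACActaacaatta

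**Figure D4:**
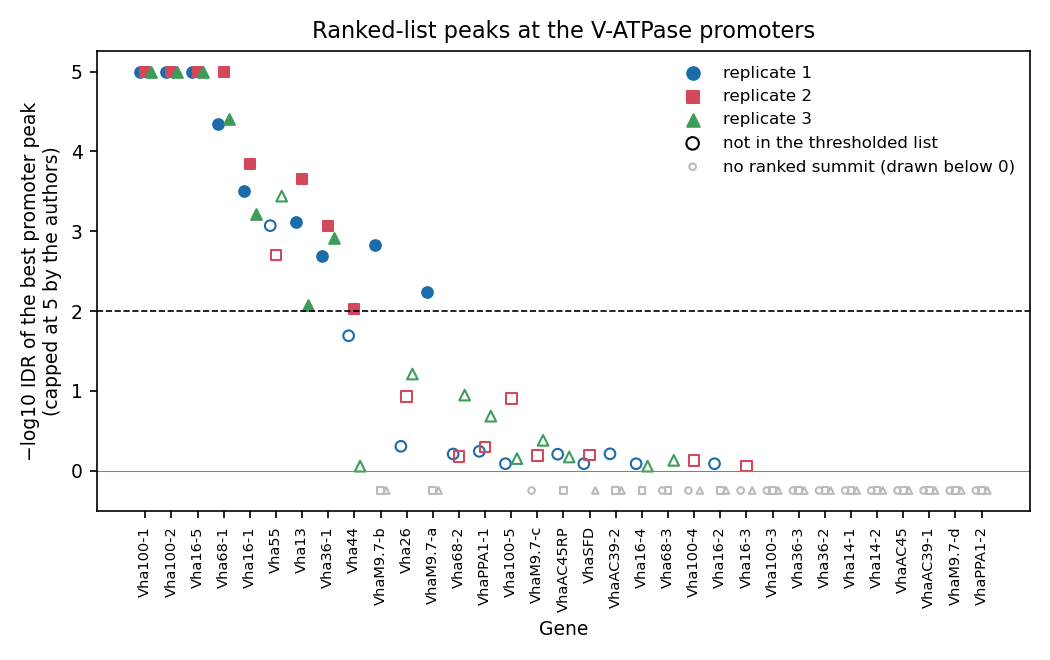
Negative log10 of the IDR of the best ranked peak with its summit within 500 bp of a start, for each V-ATPase gene and replicate, capped at 5 in the authors' files, with the threshold of 2 as a dashed line. Filled symbols are in the thresholded list and open ones are not; the 3 open symbols of Vha55 lie above the line at 3.07, 2.70 and 3.44.

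The searched words were counted within 50 bp of the summits of the 7 promoter regions found in 3 replicates, on both strands. CAACAA, the word known for Aef1, was in 2 of the 7 (Vha100-1 and Vha68-1), against 18.8% of the 1143 promoter regions found in 3 replicates and 10.2% of 19253 windows of the same 101 bp centred 100 bp upstream of annotated starts. GCAACA was in 1 of the 7, at Vha100-1, against 11.7% and 7.58%. The tandem word CAACAACAA was in 0 of the 7, against 5.51% and 0.997%. TATAAA was in 2, at Vha100-1 and Vha68-1, against 23.7% and 16.3%. TATCGATA, the word of the DNA replication-related element, was in 0, against 2.54% and 2.27%, and the A tract AAAAAAA was in 0, against 12.5% and 10.6%. With 7 regions these counts describe the sites and were not tested.

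At the other V-ATPase sites CAACAA was farther off or not found. The nearest copy lay 29 bp from the summit at Vha100-1, 47 bp at Vha68-1, 73 bp at Vha16-5, 80 bp at Vha100-2 and 494 bp at Vha13, and none lay within 500 bp at Vha16-1 and Vha36-1. A copy thus lay within 100 bp at 4 of the 7, against 28.4% of the 1143 promoter regions and 18.8% of start windows of that size. Within 500 bp of a transcript start, CAACAA was at 5 of the 7 genes bound in 3 replicates, at 16 of the 23 unbound genes, and at 68.8% of all genes. The base composition of the 7 windows was 42.1% G and C ± 9.87 (SD over 7 regions), from 25.7% at Vha68-1 to 55.4% at Vha16-5, against 34.5% ± 10.5 (SD) over the 1143 regions.

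CACGTG, the E-box, was included because Mitf, the fly relative of mammalian TFEB, is known to act on V-ATPase genes through it. Within 500 bp of a start it was at 11 of the 33 genes (33.3%), against 15.4% of all protein-coding genes. It was at 2 of the 7 genes bound in 3 replicates, Vha100-2 and Vha16-1, and at 8 of the 23 unbound genes. Within 50 bp of a bound summit it was at 0 of the 7, against 1.05% of all promoter regions in 3 replicates and 1.01% of start windows. The nearest copy to any of these 7 summits was 219 bp away, at Vha16-1. The share with an E-box within 500 bp of a start was thus above that of all genes over the whole family. With a background of about 1%, the 0 of 7 at the summits is near the share of any promoters and sets these 7 apart in no way.

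Other genes of the pathway were counted by the same rule. Of 11 genes for regulators and assembly of the V-ATPase, 2 (18.2%) were bound in all 3 replicates, against 11.3% of all genes. Lamtor3, a subunit of the Ragulator complex on lysosomes, had one of the strongest peaks, at 1.17%, 1.38% and 2.21%, a mean of 1.59% ± 0.549 (SD, n = 3), and mtd, a protein of the oxidation resistance family, stood at 50.7% ± 7.20 (SD, n = 3). Lamtor5, of the same complex, was bound in replicate 3 only, at 73.1%, and RagA-B, the GTPase that it serves, in replicate 2 only, at 75.0%. Of 26 lysosome genes, including those of the HOPS tethering complex and Mitf, 4 (15.4%) were bound in 3 replicates, against 11.3% of all genes. These were the hexosaminidase gene Hexo2 at 8.59% ± 1.41, car of the HOPS complex at 60.2% ± 13.0, the cathepsin gene CtsL1 at 62.1% ± 5.71, and Arl8, a lysosomal GTPase, at 65.6% ± 7.25 (SD, n = 3 each). The peak of CtsL1 was also that of the proteasome gene Rpn13, at the same places in each list. Mitf was not bound. At these list sizes the shares of the regulator and lysosome lists were near that of all genes.

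Genes of other large complexes gave lower shares than the V-ATPase genes, though these lower shares were near that of all genes. Of 15 genes for the mitochondrial ATP synthase, the rotary relative of the V-ATPase, 1 (6.67%) was bound in 3 replicates, ATPsynE at 43.0% ± 2.83 (SD, n = 3). Of 48 proteasome genes, 4 (8.33%) were bound, with Rpn3 the strongest at 31.8% ± 16.9 (SD, n = 3). Both shares were below the 11.3% of all genes but near it at these list sizes, and that of the V-ATPase genes was above it. In replicates 1, 2 and 3 the ATP synthase gave 13.3%, 6.67% and 20%, against 16.6%, 15.0% and 14.6% of all genes. In replicate 3 its share was close to the 21.2% of the V-ATPase genes. The proteasome gave 14.6%, 12.5% and 10.4%. No difference between lists was tested.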

How the data were processed

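Members, gene lists and searched words were chosen with earlier results of these data known. For each replicate the authors deposited a ranked peak list and a list thresholded on the IDR. The deposited score is 125 times the negative log2 of the IDR, capped at 1000, and runs from 830 to 1000 in the thresholded lists, so these reach an IDR of about 0.01. The signal is the authors' value per peak, on an unstated scale. The ranked lists give −log10 of the IDR as deposited by the authors, capped at 5. Per the labels the assembly is dm6. Which aligner and peak caller were run, and in which version, is not given in the sources used here. Depth is unknown, so no interval is given.

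Peaks on the 6 main arms were assigned to Ensembl release 115 genes (BDGP 6.54, dm6 coordinates), and 9, 22 and 18 peaks elsewhere were left out. Peaks sharing at least 1 bp were merged across replicates into regions. For each region the strongest peak of every replicate was taken, and the median of their summits stood for the region. Every gene with a bound promoter or span is named, together with neighbours whose start shares the window, and up to 4 bound genes with the lowest mean place in each other list. Unbound genes and genes of the pathway bound in 1 replicate were named after their values were seen. Assignment was tested on simulated data. The list of regulators had 12 written names, of which 11 matched. Results are counts and places beside the share of all genes, with no test over members. Alternatives were windows of 250 and 1000 bp, canonical starts, any peak base, other overlaps and leaving out each replicate. The IDR was also set to 0.001 in the thresholded lists and to 0.05 in the ranked lists. Others were the 4 lists deposited for the whole series and motif windows of 25 and 100 bp. Scripts ran in Python 3.11.15 with pandas 2.3.3, numpy 2.4.6 and, for figures, matplotlib 3.10.9.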

Additional observations from a re-analysis of the deposited data

Results flagged for a closer look

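The promoter of Vha55, which encodes subunit B of V1, had a peak only in the ranked lists, outside the thresholded lists that the comparisons use. Its IDR there was 0.000857 in replicate 1, 0.00199 in replicate 2 and 0.000363 in replicate 3, each below the 0.01 that the thresholded lists reach. In each replicate Vha55 was the only V-ATPase gene whose promoter peak passed that threshold in the ranked list and was missing from the thresholded one, among 49, 42 and 48 such genes in replicates 1, 2 and 3. The cause was not tested.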

How the results depend on the processing

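With 1 group, no control and unknown depth, the counts have no test, and a peak between divergent starts cannot be given to 1 gene. The count of promoters bound in all 3 replicates, 7 as reported, was 5 at 250 bp (Vha100-2 and Vha16-5 lost, against 8.83% of all genes), 8 at 1000 bp (Vha14-1 added, against 13.3%), 7 with any peak base (against 11.9%) and 6 with canonical starts (Vha16-1 lost, against 9.73%). It was 5 at an IDR of 0.001 (against 8.63%). With the ranked lists read at an IDR of 0.05 it was 8 (Vha55 added, against 13.4%). Reading the ranked lists at an IDR of 0.01, an alternative chosen after seeing the data, gave the same 8 genes (against 11.5%). Vha55 was thus added by the change of list and not by the looser IDR. The 4 whole-series lists, each read on its own, gave 8, 8, 8 and 7 genes, against 20.2%, 18.8%, 18.3% and 19.3% of all genes. The gap between the V-ATPase genes and all genes was thus smaller in these lists, although the counts hardly changed. The first and the third of them added Vha26, and the second added Vha44. Leaving out each replicate in turn gave 7 to 7 promoters and 4 to 4 spans.

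The span counts depended on the overlap rule. With the summit required inside the span they were 1, 1 and 2 in replicates 1, 2 and 3 (against 10.1%, 9.28% and 8.9% of all genes), 1 in all 3 (6.83%) and 2 in any (12.4%). With the span widened by 500 bp they were 10, 9 and 8 (23.2%, 21.1% and 20.2%), with 8 in all 3 (16.1%) and 11 in any (27.2%). Replicate 1 had 7 in the ranked list at an IDR of 0.05 (19.1%), among them Vha55, which has an IDR of 0.000857 there. An IDR of 0.001 gave 3 in replicate 3 (10.5%) and 2 in all 3 (7.20%). These moves follow from the looser or stricter rules and, at 0.05, also from the change of list. Within 25 bp of the summit CAACAA was in 0 of the 7 regions (against 10.9% of promoter regions), as was GCAACA (7.09%) and the word TATAAA (12.2%), and within 100 bp CAACAA was in 4 (28.4%). Of 88 recomputed values, 71 stayed within 1.5 times the reported count and 17 moved further. That rule compares counts and not the gap to all genes. Ranking by the q column was not run, since up to 666 of its values were tied, against 3 for the signal. No paired analysis was possible because the samples form 1 group.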
